A study of Homo sapiens with 8 samples.

Results

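The genes ANKRD2, RASGRP1, GFRA1, NAV3, CAMK2N1, PLK2 and MYH9 were measured in CAPAN-2, a long-established human cell line derived from a pancreatic adenocarcinoma, after stable silencing of the receptor ErbB2 or of the membrane mucin MUC4. These 7 genes were chosen by their measured values: they are signalling and cytoskeletal genes whose labelled knockdown over control ratios went opposite ways in the ErbB2-KD and MUC4-KD experiments or differed strongly. They hold 14 of the 41000 probes of the array and 7 of the 17240 gene symbols that the probes' accessions gave. Because the ratios themselves picked the genes, their values are a description and carry no test. No cut-off was part of the choice.

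ErbB2-KD cells carried a puromycin vector with a shRNA against ErbB2, and their controls, called NT, carried the same vector empty. MUC4-KD cells were infected with a retroviral pRetroSuper vector against MUC4 and selected with G418, and their controls, called Mock, carried the empty retroviral vector. So each experiment had its own vector, drug and control, and no control RNA was shared between them. Clones were isolated by dilution. By the methods, each of the 8 Agilent 2-colour arrays set 1 knockdown clone against the pooled RNA of 4 control clones. The labels name a different ErbB2-KD clone on each of its 4 arrays (EV7, EV12, EV9 and EV18) but do not name the MUC4-KD clones. A pool counts as 1 control sample, so the SDs below hold the spread between arrays and not that between control clones.

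As background, RASGRP1 is a diacylglycerol-activated exchange factor that loads Ras with GTP, and GFRA1 is the surface co-receptor that presents GDNF to the RET kinase. PLK2 is a polo-like kinase of the stress and p53 response, and CAMK2N1 is an inhibitor of calcium/calmodulin-dependent kinase II. ANKRD2 is an ankyrin repeat protein of the MARP family that responds to stretch in muscle. MYH9 is the heavy chain of non-muscle myosin IIA, the motor of the cortical actin network, and NAV3 is a neuron navigator that binds the growing ends of microtubules. Ras, calcium and cytoskeletal signalling are routes through which growth factor receptors such as ErbB2 act.

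The promoters of 3 of the genes that were lower in ErbB2-KD and higher in the RNA labelled MUC4-KD are shown because each has a single start in the RefSeq table. That their ratios are opposed comes from the choice of the genes, and the sizes of the ratios differed between them. Each line is the 250 bases upstream of the start on the strand of the gene (GRCh38.p14, minus strand). MYH9 lies at chr22:36387968-36388217, PLK2 at chr5:58460087-58460336 and RASGRP1 at chr15:38564815-38565064. Capitals mark matches, on either strand, to the GC box GGGCGG, the TEAD motif GGAATG, the AP-1 motif TGANTCA, the core of the cAMP response element TGACG, the E-box CACGTG or the TATA box TATAAA. Only these exact letters were searched, with N as any base. Near matches, such as tatataag near the end of the PLK2 window, are left unmarked and uncounted.
MYH9: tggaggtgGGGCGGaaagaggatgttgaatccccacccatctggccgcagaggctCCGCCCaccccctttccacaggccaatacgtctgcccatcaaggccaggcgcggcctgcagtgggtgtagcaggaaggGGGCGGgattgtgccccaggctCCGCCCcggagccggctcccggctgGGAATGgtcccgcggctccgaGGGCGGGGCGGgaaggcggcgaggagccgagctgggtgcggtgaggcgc
PLK2: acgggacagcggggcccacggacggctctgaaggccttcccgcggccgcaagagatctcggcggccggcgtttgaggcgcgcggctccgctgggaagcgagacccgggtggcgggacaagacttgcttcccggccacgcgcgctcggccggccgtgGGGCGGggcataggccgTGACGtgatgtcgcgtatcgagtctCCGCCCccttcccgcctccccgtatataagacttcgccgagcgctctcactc
RASGRP1: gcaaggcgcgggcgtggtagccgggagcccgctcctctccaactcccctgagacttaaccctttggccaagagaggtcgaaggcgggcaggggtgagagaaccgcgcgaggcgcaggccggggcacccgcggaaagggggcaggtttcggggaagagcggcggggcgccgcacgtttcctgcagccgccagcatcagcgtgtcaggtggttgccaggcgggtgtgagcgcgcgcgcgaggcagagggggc
MYH9 held 6 GC boxes, of which 2 share a base, and a TEAD motif that starts 70 bases upstream. PLK2 held 2 GC boxes and a cAMP response element core that starts 77 bases upstream. RASGRP1 held none of the 6 motifs, although its window was as rich in G and C (71.6%) as that of MYH9 (71.6%) and PLK2 (71.2%). Of 35116 upstream windows of this length in the table, 42.6% held the GC box, 11.9% the TEAD motif, 6.57% the AP-1 motif, 21.2% the cAMP core, 6.34% the E-box and 10.7% the TATA box. No motif was common to the 3 windows. The table held 11 entries for 6 of the 7 genes, and CAMK2N1 had none.

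The labels set the direction of every ratio, and the targeted genes were read first. The brighter ERBB2 probe was lower in ErbB2-KD on all 4 arrays (−0.58, −0.32, −0.33 and −0.38 on the log2 scale; mean −0.40 ± 0.12, SD, n = 4; limma adjusted p = 0.145 over all probes), and the dimmer ERBB2 probe was at 0.04 ± 0.02. MUC4 went against its label: all 4 of its probes had a positive mean in the RNA labelled MUC4-KD (0.27, 0.41, 1.34 and 1.84). The first 2 did not pass (limma adjusted p = 0.167 and 0.0983) and read −0.05 and −0.04 on MUC4-KD array 4. The last 2 rose past the threshold (limma adjusted p = 0.0354 and 0.00803). The study's own list of changed genes runs the MUC4-KD ratios the opposite way. Whether the channel labels of these 4 arrays were exchanged was not tested. Ratios are therefore given for the RNA labelled MUC4-KD, and also with the sign turned.

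Dyes were balanced in both experiments, with 2 arrays for each orientation of Cy5 and Cy3. The 8 arrays lay on 3 slides that each held both experiments. In each channel 56.6% to 74.1% of probes were well above background, median spot signals ran from 100 to 593, and no spot was saturated. MUC4-KD array 4 stood apart from the others of its experiment (r of 0.33 to 0.54 over probes, against 0.68 to 0.83 among the other 3). Between the ErbB2-KD arrays r ran from 0.20 to 0.72, so these too agreed unevenly. Among the markers of ductal epithelium, 6 of 9 were above background in all 16 channels. Among markers of other cell types, CD14 was above background in 16 channels, VWF in 14, CD3E in 8, COL3A1 in 7, PRSS1 in 6, INS in 5, CPA1 in 4, CDH5 in 3, PECAM1 in 2 and PTPRC in 1, and DCN, PDGFRB and GCG in none.

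RASGRP1 was lower in ErbB2-KD and, by less, higher in the RNA labelled MUC4-KD. On its brightest probe the log2 ratio was −2.53, −3.17, −2.81 and −2.09 in ErbB2-KD, a mean of −2.65 ± 0.45 (SD, n = 4) or 6.27-fold lower than NT. Over Mock, the RNA labelled MUC4-KD read 1.35, 0.83, 1.40 and 0.05, a mean of 0.91 ± 0.63 or 1.88-fold higher. All arrays of ErbB2-KD lay far below 0 and those labelled MUC4-KD lay above it, the last of them only just. Without MUC4-KD array 4 the MUC4-KD mean was 1.19 ± 0.31 (n = 3). The exchange factor was well above background on 3 of the 4 ErbB2-KD channels and on all NT channels, so its lowest level is near the limit of measurement. In bulk RNA, a lower level per cell and fewer cells that express a gene cannot be told apart. A second RASGRP1 probe gave −1.23 ± 0.49 and 0.23 ± 0.29. The dimmest, not tested in the MUC4-KD experiment, gave −0.26 ± 0.12 and 0.03 ± 0.13. The probes therefore shared the direction in ErbB2-KD but differed in size, and near 0 in the RNA labelled MUC4-KD the second probe had 1 array below 0 (−0.04). The difference between the experiments was 3.56 on the brightest probe and 1.77 over the mean of the tested probes.

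GFRA1, the GDNF co-receptor, was lower in ErbB2-KD on every array (−1.82, −0.83, −1.64 and −0.95; mean −1.31 ± 0.49, n = 4). It was not well above background in any of the 4 ErbB2-KD channels and was so in all 4 NT channels. With the lowest signal of probes above background in place of the dim channel, NT was 2.41-fold above ErbB2-KD. That is no minimum for each array, since 2 arrays read only −0.83 and −0.95. As labelled, its MUC4-KD ratios were 1.37, 1.15, 1.27 and 0.06 (mean 0.96 ± 0.61, or 1.95-fold), with the Mock channel above background on 1 of 4 arrays. Array 4 is again the one near 0, and the other 3 averaged 1.27 ± 0.11. The second GFRA1 probe moved little, −0.23 ± 0.20 and 0.28 ± 0.18, and its groups overlapped. The difference of the brighter probe, 2.27, became 3.43 with a smaller normexp offset, 7.65 with the Feature Extraction log ratio (−4.03 in ErbB2-KD and 3.61 in the RNA labelled MUC4-KD) and 1.39 over both probes. With a dim channel on each side, the size of the GFRA1 ratios thus depends on the background correction.

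PLK2 was raised in the RNA labelled MUC4-KD and lay nearer to 0 in ErbB2-KD. This kinase, with 1 probe well above background in all channels, read 2.04, 2.38, 1.94 and 1.82 in the former (mean 2.04 ± 0.24, n = 4), which is 4.13-fold above Mock. In ErbB2-KD it read −0.73, −0.74, −0.50 and −0.01, a mean of −0.49 ± 0.34 or 1.41-fold below NT. Array 4 of ErbB2-KD was at 0, so for PLK2 it is the MUC4-KD side that carries the difference of 2.54. Leaving out MUC4-KD array 4 made the MUC4-KD mean 2.12.

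CAMK2N1, the kinase inhibitor, ran the other way and had the largest SDs among the brightest probes. Its ratios were 0.05, 2.22, 2.84 and 1.54 in ErbB2-KD, a mean of 1.66 ± 1.20 (n = 4) or 3.17-fold above NT. ErbB2-KD array 1 stood at 0 while the other 3 clones were clearly higher. In the RNA labelled MUC4-KD the ratios were −2.06, −1.98, −1.37 and −0.43, a mean of −1.46 ± 0.76 or 2.75-fold below Mock. The groups did not overlap, and they came within 0.47 of each other. The second CAMK2N1 probe gave the same picture, with 0.15, 2.04, 3.37 and 1.60 in ErbB2-KD and −1.64, −1.47, −1.40 and −1.17 in the RNA labelled MUC4-KD. On that probe array 4 of MUC4-KD was in the range of the others and the SD was 0.20. Both probes thus placed ErbB2-KD array 1 apart from the other 3 clones.

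ANKRD2, the stretch-responsive ankyrin protein, was represented by 2 probes of unequal response. The brighter one read −1.25, −0.94, −1.27 and −0.93 in ErbB2-KD (mean −1.10 ± 0.19, n = 4) and 1.26, 1.87, 1.06 and 0.57 in the RNA labelled MUC4-KD (mean 1.19 ± 0.53). The groups were 1.50 apart at their nearest arrays. The second probe read −1.56, −1.97, −2.46 and −2.41 against 2.98, 2.84, 2.83 and 1.19, with means of −2.10 ± 0.42 and 2.46 ± 0.85. Its difference of 4.57 ranks 22nd in size among the 25814 probes tested in either experiment as labelled, and 12725th, at −0.36, with the MUC4-KD sign turned. Without MUC4-KD array 4 the MUC4-KD mean of the second probe was 2.89 ± 0.08.

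MYH9, the myosin heavy chain, had the smallest SDs among the brightest probes. It read −1.65, −1.49, −1.54 and −1.37 in ErbB2-KD, a mean of −1.51 ± 0.12 (n = 4) or 2.85-fold below NT. It read 0.61, 0.72, 0.76 and 0.82 in the RNA labelled MUC4-KD, a mean of 0.73 ± 0.09 or 1.66-fold above Mock. Unlike for most of the 7 genes, array 4 was not the one nearest 0 here. The second MYH9 probe had the same direction but a smaller size in the RNA labelled MUC4-KD, where it averaged 0.28 ± 0.18 (−1.27 ± 0.48 in ErbB2-KD).

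NAV3, the microtubule-binding navigator, read −2.19, −1.40, −3.28 and −1.72 in ErbB2-KD, a mean of −2.15 ± 0.82 (n = 4) or 4.43-fold below NT. Its MUC4-KD ratios as labelled were 1.10, 0.72, 1.19 and 0.71, a mean of 0.93 ± 0.25 or 1.91-fold above Mock. ErbB2-KD array 3 was the lowest for NAV3 and the groups stayed 2.11 apart. The second probe gave −1.24 ± 0.54 and 0.69 ± 0.45, with array 3 again lowest in ErbB2-KD.

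**Figure D1:**
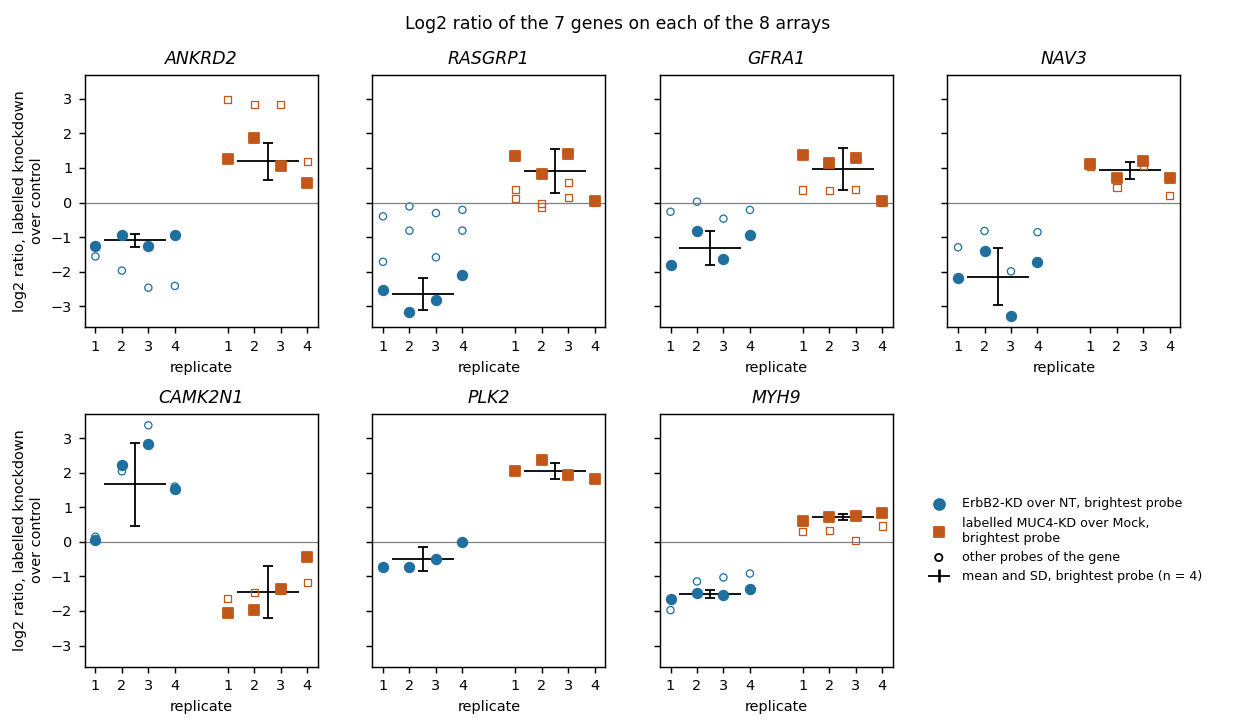
Log2 ratio of labelled knockdown over control on each array for the 7 genes. Filled points are the brightest tested probe, open points the gene's other probes, circles the ErbB2-KD arrays, squares those labelled MUC4-KD, and bars the mean and SD of the brightest probe (n = 4). ErbB2-KD lies below 0 for 6 genes and above 0 for CAMK2N1, and MUC4-KD array 4 is nearest 0 for 6 of the 7.

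Counted by their brightest probes, 6 genes were below 0 on all 4 ErbB2-KD arrays and above 0 on all 4 arrays labelled MUC4-KD, and CAMK2N1 was the reverse. Among the 22995 probes tested in both experiments the first pattern was met by 3.8% and the reverse by 1.95%. All 8 arrays lay below 0 for 4.21% and above it for 3.99%. Of all 14 member probes, 13 were tested in both experiments, 9 showed the first pattern and 2 the reverse. The other 3 were both dimmer RASGRP1 probes and the second GFRA1 probe. The arrays labelled MUC4-KD all lay above those of ErbB2-KD for 10 of the 13 probes (11.1% of probes in general) and all below for the 2 of CAMK2N1 (7.06%). These counts restate the choice of the genes and nothing is read from them. In size, the differences of the brightest probes as labelled ranked from 51st (RASGRP1) to 223rd (MYH9) among 25814, and with the MUC4-KD sign turned from 711th (RASGRP1) to 21820th (ANKRD2). The rank of GFRA1 (213th as labelled) rests on an ErbB2-KD channel that was never well above background.

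**Figure D2:**
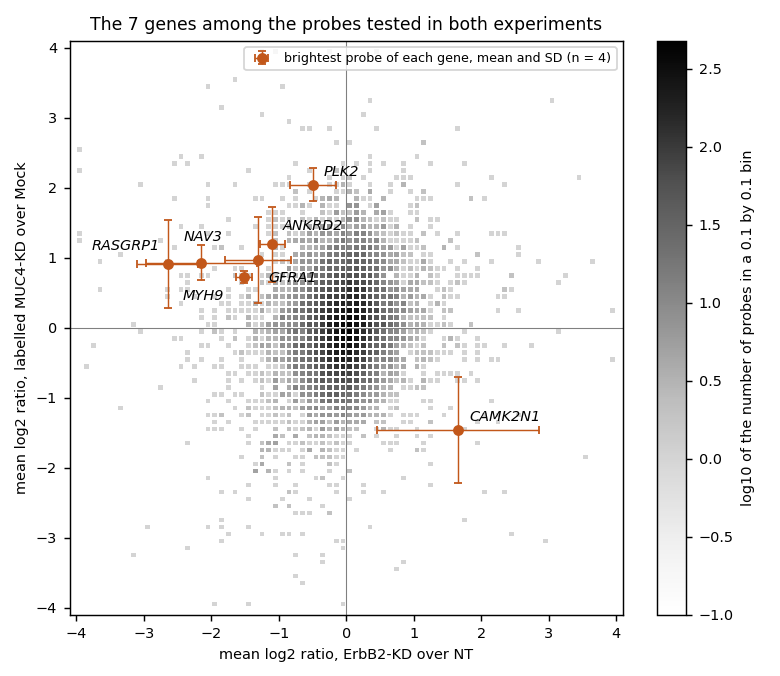
Mean log2 ratio in ErbB2-KD over NT (x axis) and in the RNA labelled MUC4-KD over Mock (y axis). Grey squares are bins of the 22995 probes tested in both experiments, darker for more probes and with values beyond 4 drawn at the edge, and orange points are the brightest probes of the 7 genes with their SDs (n = 4). Of the 7, 6 lie in the upper left and CAMK2N1 in the lower right.

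With the sign of the MUC4-KD ratios turned, the 7 genes went the same way in both experiments, lower for 6 and higher for CAMK2N1. The turned MUC4-KD mean minus the ErbB2-KD mean was then −0.09 for ANKRD2, −0.20 for CAMK2N1 and 0.35 for GFRA1, each smaller than its SD between arrays. It was 0.78 for MYH9, 1.22 for NAV3 and 1.74 for RASGRP1, which were lower in ErbB2-KD than in the turned MUC4-KD ratio. PLK2 gave −1.55, the other way about. Whether the 7 genes are opposed or shared between the knockdowns thus depends wholly on the direction given to the MUC4-KD arrays.

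The signal of each dye channel, after joint normalization of the 8 arrays, gave the level of each gene in the 4 labelled RNAs. Levels are log2 signals of 1 probe and were set side by side only within a gene. ANKRD2 stood at 11.65 ± 0.19 in NT and 11.63 ± 0.15 in the RNA labelled MUC4-KD, and at 10.56 ± 0.36 in ErbB2-KD and 10.44 ± 0.58 in that labelled Mock. The arrays of the first 2 RNAs overlapped, as did those of the last 2. GFRA1 stood at 8.19 ± 0.49 in NT and 7.95 ± 0.13 in MUC4-KD, which overlapped. It read 6.99 ± 0.49 in Mock, above background in 1 of 4 channels, and 6.88 ± 0.34 in ErbB2-KD, above background in none, so those levels have no order. The highest Mock array (7.70) was above the lowest NT array (7.47).

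NAV3 was spread over wider steps. It was at 10.94 ± 0.11 in NT, 10.60 ± 0.08 in MUC4-KD, 9.67 ± 0.29 in Mock and 8.79 ± 0.72 in ErbB2-KD, and only the last 2 overlapped. RASGRP1 was at 10.48 ± 0.29 in NT, well above 8.80 ± 0.08 in MUC4-KD, 7.89 ± 0.58 in Mock and 7.83 ± 0.66 in ErbB2-KD. Mock and ErbB2-KD overlapped for this exchange factor, and the RNA labelled MUC4-KD lay above every Mock reading by a small margin.

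MYH9 stood at 14.49 ± 0.14 in NT, 13.10 ± 0.18 in MUC4-KD, 12.97 ± 0.05 in ErbB2-KD and 12.37 ± 0.13 in Mock. ErbB2-KD and MUC4-KD overlapped, and NT was higher than either. PLK2 was at 15.50 ± 0.13 in MUC4-KD, 14.88 ± 0.04 in NT, 14.38 ± 0.33 in ErbB2-KD and 13.45 ± 0.18 in Mock, and NT and ErbB2-KD touched through 1 array. CAMK2N1 ran in the reverse order, from 11.16 ± 0.49 in Mock through 10.17 ± 1.46 in ErbB2-KD and 9.70 ± 0.31 in MUC4-KD to 8.51 ± 0.28 in NT. The 4 ErbB2-KD clones spanned 8.25 to 11.72 for CAMK2N1, overlapping each of the other RNAs.

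As labelled, the control pools differed from each other for these genes. The gap is built in part by the choice of the genes. It contains the steps from NT to ErbB2-KD and from MUC4-KD to Mock, which are the ratios that picked them. NT minus Mock was 1.21 for ANKRD2, 1.21 for GFRA1, 1.26 for NAV3, 1.42 for PLK2, 2.11 for MYH9, 2.59 for RASGRP1 and −2.65 for CAMK2N1, against a median of −0.0035 over probes tested in both experiments. If the MUC4-KD channel were the control instead, NT minus that channel would be 0.02 for ANKRD2, 0.24 for GFRA1, 0.33 for NAV3, 1.38 for MYH9, 1.68 for RASGRP1 and −1.19 for CAMK2N1, and of the other sign, −0.62, for PLK2. The size of the gap between controls thus depends on which channel is the control for all 7 genes, as does its sign for PLK2. For ANKRD2 and GFRA1 the arrays of NT and of the RNA labelled MUC4-KD overlapped, and for NAV3 they did not. ErbB2-KD minus Mock was smaller in size than NT minus Mock for all 7, from −0.99 for CAMK2N1 to 0.93 for PLK2. That too follows in part from the choice. The control clones had different vectors and drugs and the arrays of the experiments were separate, so these effects and the cells' own levels cannot be told apart.

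**Figure D3:**
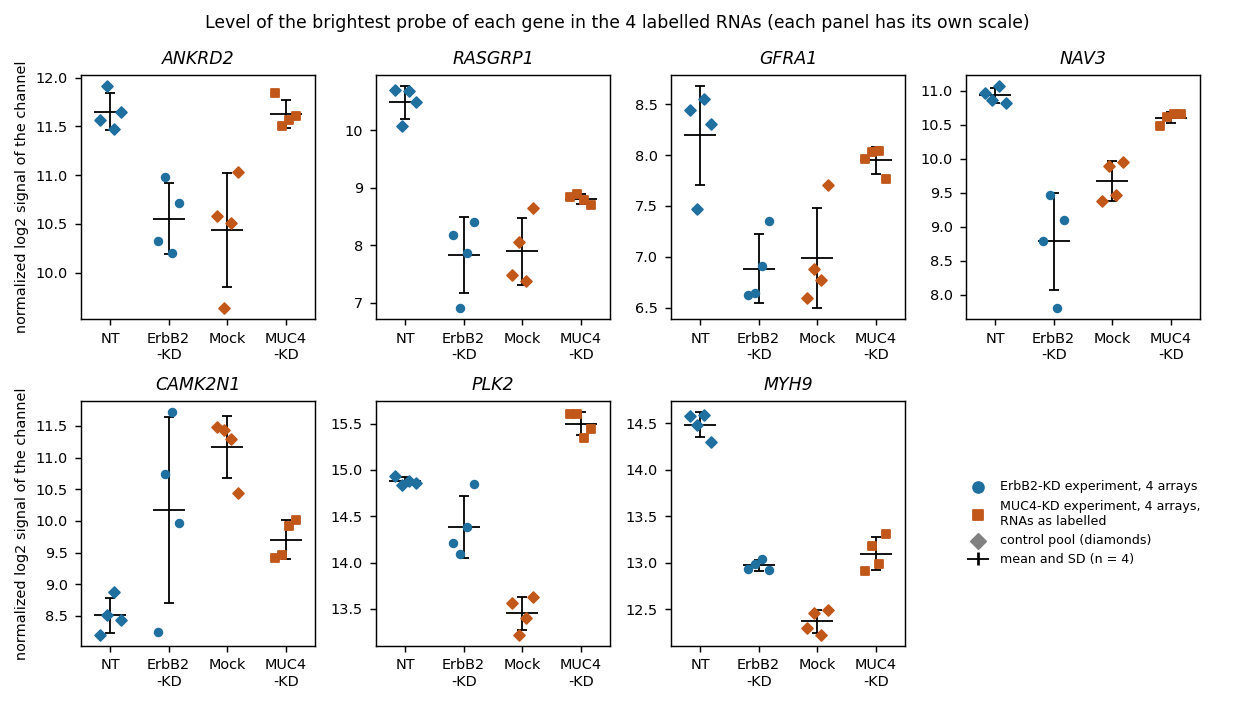
Normalized log2 signal of the brightest probe of each gene in the 4 labelled RNAs, with 1 point for each array, bars for the mean and SD (n = 4), and a separate scale in each panel. NT is highest for 5 genes and lowest for CAMK2N1, and for ANKRD2 and GFRA1 the NT and MUC4-KD arrays overlap.

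The spread of the channels differed by experiment. In the ErbB2-KD experiment the knockdown channel, with 4 clones, varied more over the arrays than the NT pool for 5 of the 7 genes and for 81.1% of the 23817 tested probes (median SD 0.344 against 0.168). In the MUC4-KD experiment it was the channel labelled Mock that varied more, for 6 of the 7 genes and for 72.8% of the 24992 tested probes (median SD 0.249 against 0.149). For RASGRP1 the SD was 0.58 in the Mock channel and 0.08 in the MUC4-KD channel. MUC4-KD array 4 showed this too: its Mock reading was the highest of the 4 for ANKRD2 (11.03), RASGRP1 (8.65) and GFRA1 (7.70) and the lowest for CAMK2N1 (10.43), whereas its MUC4-KD readings of RASGRP1 (8.70) and ANKRD2 (11.61) were close to the other arrays. Array 4 was nearest 0 for 6 of the 7 genes, and for 49.8% of probes tested in both experiments.

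Within each slide the difference between the experiments kept its direction for all 7 genes. This was fixed beforehand, because the arrays of the experiments did not overlap for any of these brightest probes. Only the sizes are therefore read. It ran from 3.22 to 3.50 for RASGRP1, from 2.05 to 2.32 for MYH9, from 2.00 to 2.99 for PLK2, from 2.11 to 3.45 for NAV3 and from −3.42 to −2.65 for CAMK2N1. ANKRD2 (1.51 to 3.13) and GFRA1 (0.88 to 2.88) varied most relative to their size, both with the lowest value on slide 2, where the only array of the MUC4-KD experiment was array 4. By dye, CAMK2N1 gave −2.03 with the knockdown in Cy5 and −4.21 with it in Cy3, and ErbB2-KD array 1 was among the Cy5 arrays. The part of dye and of clone in that gap cannot be told apart. For the other 6 genes the differences by dye ran from 1.91 (ANKRD2, Cy5) to 3.57 (RASGRP1, Cy5), and their sign was likewise fixed.

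**Figure D4:**
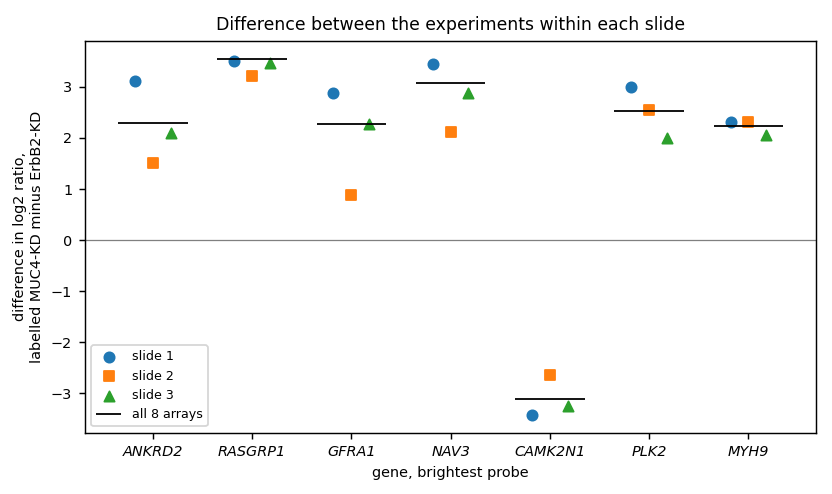
Difference in log2 ratio (labelled MUC4-KD minus ErbB2-KD) of the brightest probe of each gene within each of the 3 slides (points) and over all 8 arrays (lines). The sign could not change between slides, because the arrays of the experiments did not overlap. Slide 2 gives the smallest difference for ANKRD2, RASGRP1, GFRA1, NAV3 and CAMK2N1.

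The genes most like each member were found among 11676 symbols by the root-mean-square difference of log2 ratios over the 8 arrays, a measure that does not depend on the direction given to the MUC4-KD arrays. The nearest to ANKRD2 were PDGFB, a platelet-derived growth factor chain (0.29), and ARID5B (0.38). PDGFB was at −1.08 ± 0.39 in ErbB2-KD and 1.21 ± 0.41 in the RNA labelled MUC4-KD. LRRN2 was nearest to both RASGRP1 (0.50) and NAV3 (0.50), followed by ABI3BP (0.52) and SMCO3 (0.53), respectively. HOXB5, a homeobox factor (0.36), and EML1, a microtubule-binding protein (0.40), were nearest to GFRA1.

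TNFAIP8 (0.39) and PTPRF, a receptor tyrosine phosphatase (0.43), were nearest to PLK2. They read higher in the RNA labelled MUC4-KD (1.72 ± 0.46 and 1.56 ± 0.19) than they read low in ErbB2-KD (−0.68 ± 0.27 and −0.63 ± 0.32). That the nearest genes read like their member is built into the measure, here and for the other members. HDHD5-AS1 (0.35) and SIRPA, a receptor of the CD47 signal (0.35), were nearest to MYH9. The nearest to CAMK2N1 were FHOD3, a formin (0.73), and MACC1 (0.75), with larger distances than for any other member. The measure is not scaled to the spread, and CAMK2N1 had the largest SDs among the brightest probes (1.20 and 0.76). Its distances are therefore not read as a distinct profile. MACC1 was at 2.25 ± 0.87 in ErbB2-KD and −1.35 ± 1.22 in the RNA labelled MUC4-KD.

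The relatives of the 7 genes, which the choice of the members did not use, were read from 8 lists of 114 genes, of which 112 were on the array and 88 were bright enough to be tested. The lists were chosen with earlier results of these data known. Their shares beside those of all probes are therefore a description and no independent test. In ErbB2-KD 2 of 82 rose (2.44%) and 2 fell (2.44%), by limma at an adjusted p under 0.05, against 0.563% and 0.92% of all probes (0.776% and 1.23% of symbols). In the RNA labelled MUC4-KD 17 of 88 rose (19.3%) and 10 fell (11.4%), against 12% and 8.5% of probes (12.3% and 10.9% of symbols). The difference between the experiments passed for 9 (10.2%, higher as labelled) and 5 (5.68%, lower), against 6.49% and 3.41% (6.59% and 4.81%). With the MUC4-KD sign turned it passed for 7 (7.95%, higher) and 14 (15.9%, lower), against 8.14% and 9.04% of probes (9.64% and 9.8% of symbols). Of the 14 relatives called as labelled, 6 were called with either sign (RASGRP3, NRAS, GDF15, MAPRE2, PLK4 and MYH14), and of these MAPRE2 and MYH14 kept their direction. The median log2 ratio over the lists was 0.02 in ErbB2-KD and 0.09 in the RNA labelled MUC4-KD, and −0.0027 and −0.0133 over all symbols. These calls rest on 4 arrays: of the 27 MUC4-KD calls, 3 stayed without array 1, 7 without array 2, 1 without array 3 and 27 without array 4, and of the 4 ErbB2-KD calls none stayed without array 1, 3 or 4. Of the 14 calls for the difference, 8, 11, 5 and 7 stayed without ErbB2-KD arrays 1 to 4 and 5, 7, 2 and 14 without MUC4-KD arrays 1 to 4, in that order. The calls also rest on the loess step: with median centring limma called none of the relatives in ErbB2-KD, in MUC4-KD or for the difference (14, 10 and 13 at an unadjusted p under 0.05). In ErbB2-KD limma called none with a dye term (24 at an unadjusted p under 0.05) or without the filter on dim probes (21), and for the difference it called 2 with the replicate block and 1 with the MUC4-KD arrays averaged in pairs.

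Among the Ras regulators and Ras proteins of the RASGRP1 list (17 of 22 tested), RASA1, a GTPase activating protein that switches Ras off, rose in ErbB2-KD (1.06 ± 0.38, n = 4; limma adjusted p = 0.0492) and in the RNA labelled MUC4-KD (1.24 ± 0.22; limma adjusted p = 0.00533). Its difference between the experiments was 0.19 (limma adjusted p = 0.6). NRAS rose in the RNA labelled MUC4-KD (0.93 ± 0.22) and MRAS fell there (−0.84 ± 0.30). RASGRP3, an exchange factor of the same family, went the other way and fell in the RNA labelled MUC4-KD (−1.33 ± 0.73; limma adjusted p = 0.0271); it was too dim to test in ErbB2-KD.

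Of the enzymes that make, remove or read diacylglycerol, the signal that activates RASGRP1, 17 of 25 were tested. PLCB4, a phospholipase C, rose in the RNA labelled MUC4-KD (0.93 ± 0.62) and differed between the experiments by 1.65 (limma adjusted p = 0.0195). PRKCE, a protein kinase C, fell there (−1.02 ± 0.72) and differed by −1.42 (limma adjusted p = 0.0344). PRKCA fell there (−0.80 ± 0.46) and PRKCH rose (0.48 ± 0.15). None of this list passed in ErbB2-KD.

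In the list of GDNF family ligands, receptors and related genes, 6 of 12 were tested. RET, GDNF, GFRA2, GFRA3, NCAM1 and GFRAL were among those too dim, so the kinase partner of GFRA1 has no ratio here. GDF15, a stress-induced cytokine that signals through GFRAL and RET, fell on all 4 arrays labelled MUC4-KD (−3.06 ± 0.28, n = 4; limma adjusted p = 0.00137), opposite to GFRA1. In ErbB2-KD it was at −0.15 ± 1.23, and the difference of −2.90 passed (limma adjusted p = 0.0133). It was the only relative that kept its MUC4-KD call when any array was left out. The call for the difference was lost without MUC4-KD array 3.

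Among the navigators and microtubule end proteins (12 of 13 tested), NAV2, the paralog of NAV3, rose in the RNA labelled MUC4-KD (1.51 ± 0.47; limma adjusted p = 0.00884). It was at −0.47 ± 0.77 in ErbB2-KD and differed by 1.98 (limma adjusted p = 0.0172), the direction of NAV3. TRIO, an exchange factor for small GTPases, rose there too (0.98 ± 0.56). MAPRE2, an end-binding protein, differed the other way (−0.80; limma adjusted p = 0.0248), with 0.80 ± 0.29 in ErbB2-KD and 0.01 ± 0.08 in the RNA labelled MUC4-KD.

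Of the calmodulin list, 11 of 14 were tested. CAMK1D, a calmodulin-dependent kinase, fell in ErbB2-KD (−1.84 ± 0.53, n = 4; limma adjusted p = 0.0235) and differed by 3.01 (limma adjusted p = 0.0239), with 1.18 ± 1.48 in the RNA labelled MUC4-KD. The target of CAMK2N1, kinase II, was tested through CAMK2D, which fell slightly in the RNA labelled MUC4-KD (−0.55 ± 0.12), and CAMK2G, which passed no test. CAMK2A and CAMK2B were too dim. CAMKK2 fell (−0.51 ± 0.15) and CALM3, a calmodulin gene, rose (1.18 ± 0.49) in the RNA labelled MUC4-KD.

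The other polo-like kinases differed in whether they shared the direction of PLK2. PLK3, a stress kinase, fell in the RNA labelled MUC4-KD (−1.06 ± 0.58; limma adjusted p = 0.0299) and differed by −1.42 (limma adjusted p = 0.0242), opposite to PLK2. The mitotic kinases PLK1 (0.66 ± 0.29) and PLK4 (0.89 ± 0.19) rose there, as PLK2 did. PLK4 also differed between the experiments (0.98, limma adjusted p = 0.0322), the direction of PLK2. In ErbB2-KD PLK1 was at 0.32 ± 0.44 and PLK4 at −0.09 ± 0.45, and neither passed.

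Of the myosin II list, 18 of 19 genes were tested. In the RNA labelled MUC4-KD 7 rose (38.9%) and 2 fell (11.1%), against 12.3% and 10.9% of all symbols. Without MUC4-KD array 3 none of these MUC4-KD calls stayed. MYH14, the heavy chain of non-muscle myosin IIC, fell in ErbB2-KD (−1.03 ± 0.23, n = 4; limma adjusted p = 0.0301) and differed by 1.04 (limma adjusted p = 0.00739), the direction of MYH9. It was flat in the RNA labelled MUC4-KD (0.01 ± 0.06), and its call for the difference held with any 1 array left out. MYH10, the IIB heavy chain, had positive means in both (0.51 ± 0.18 and 0.63 ± 0.12) and rose past the threshold in the RNA labelled MUC4-KD. MYLK, the kinase that activates myosin light chain, rose in both (0.80 ± 0.12 and 1.12 ± 0.56). In the RNA labelled MUC4-KD the light chain gene MYL6 (0.79 ± 0.15), ROCK1 (0.49 ± 0.13), RHOA (0.55 ± 0.15), the phosphatase subunit PPP1CB (0.51 ± 0.23) and citron kinase CIT (0.70 ± 0.18) rose. MYL12A (−0.53 ± 0.24) and ROCK2 (−0.45 ± 0.20) fell. ROCK1 also differed between the experiments (0.68; limma adjusted p = 0.0186).

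In the list of ANKRD2's family and its sarcomere partners, 4 of 5 genes were tested. ANKRD23 alone was called, and rose in the RNA labelled MUC4-KD (0.75 ± 0.48; limma adjusted p = 0.0453), with 0.11 ± 0.29 in ErbB2-KD. The paralog ANKRD1 passed no test, at 0.83 ± 0.66 in ErbB2-KD and −0.54 ± 0.93 in the RNA labelled MUC4-KD. With the sign of the MUC4-KD ratios turned, every direction given for the RNA labelled MUC4-KD in these lists is reversed. The differences then become −2.30 for RASA1 (limma adjusted p = 0.000783), −1.04 for NAV2 (limma adjusted p = 0.0894), 0.66 for CAMK1D (limma adjusted p = 0.497) and 3.21 for GDF15 (limma adjusted p = 0.00592), while MYH14 stays at 1.01 (limma adjusted p = 0.00464).

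**Figure D5:**
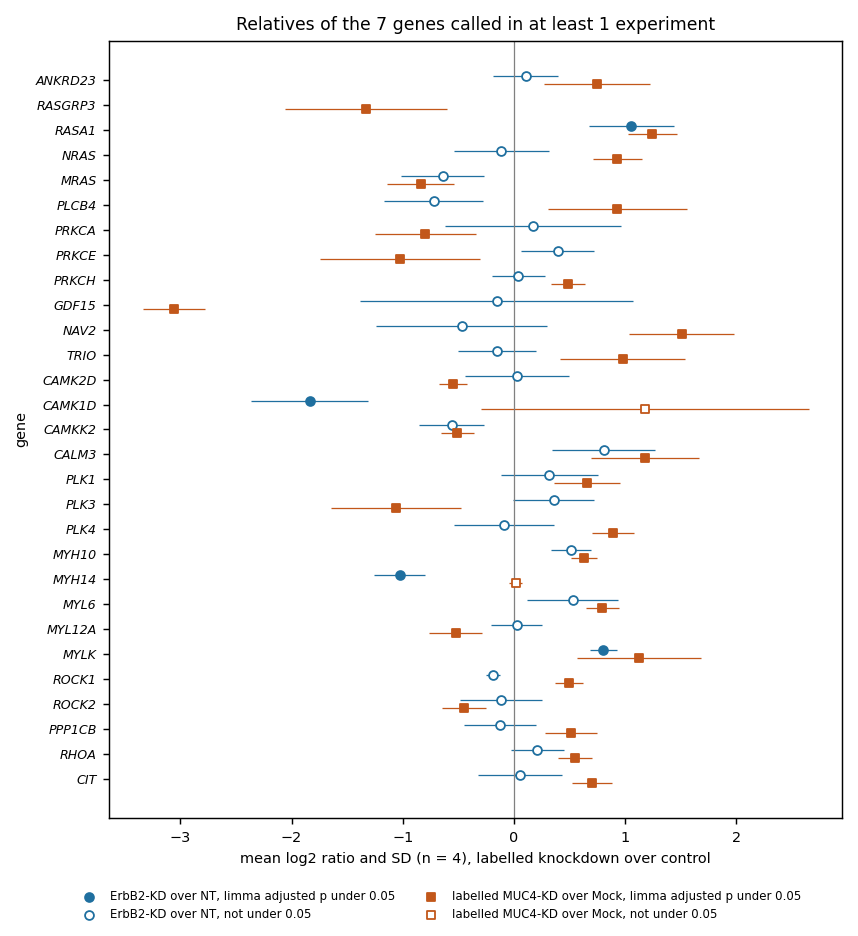
Mean log2 ratio and SD (n = 4) of the 29 relatives called in at least 1 of the experiments, in ErbB2-KD over NT (circles) and the RNA labelled MUC4-KD over Mock (squares), filled where the limma adjusted p was under 0.05. RASA1 and MYLK are filled on the right in both, and GDF15 has the most negative ratio.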

How the data were processed

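Human 44K Agilent arrays were scanned by the authors, who deposited per-array spot and background intensity (pixel medians of each channel), per the file headers from Feature Extraction 10.5.1.1, and log10 ratios of Cy5 over Cy3. The deposited table of log10 ratios equals these, turned by dye, within 5e-06. The study used GeneSpring from there.

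The intensities were read into limma 3.58.1 (R 4.3.3), corrected by normexp (offset 50) and normalized by loess, outlier spots were left out, ratios were turned to labelled knockdown over control, and spots of a probe were averaged (43376 spots, 41000 probes). Through accessions, 25398 probes got a symbol (RefSeq names, GRCh38.p14). A probe was tested if well above background on all 4 arrays in either RNA (23817 in ErbB2-KD, 24992 in MUC4-KD, 25814 for the difference). lmFit and eBayes with Benjamini-Hochberg adjustment (0.05) called 353, 5132 and 2556 probes. On simulated data with a log2 change of 2, limma recovered 82%, 81% and 87.5% of 200 probes; with a change of 1, 44%, 42% and 37%, and up to 8.64% of calls were false. Channel levels followed loess and Aquantile. The GFRA1 fold of 2.41 sets the lowest signal of probes above background in place of the dim channel.

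The members and lists were chosen with earlier results of these data known. Named were the 7 members, both targeted genes, the 2 symbols most like each member, and list genes called in any comparison, some of which are not reported here. The brightest tested probe stood for a gene. Alternatives were another offset, the Feature Extraction ratio, median centring, other filters, dye, slide and replicate blocks, an intensity trend, 1 fit over 8 arrays, the methods' t-test, averaged probes, averaged array pairs, a turned sign and leaving out each array. The number of arrays limits the precision.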

Additional observations from a re-analysis of the deposited data

Results flagged for a closer look

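Over the 4 arrays of an experiment, 3 of the 28 sets of member values had 1 array farther from the rest than Dixon's critical value for 4 samples, and chance flags about 5% of such sets. MUC4-KD array 4 was the array in each. The second ANKRD2 probe read 1.19 on it, with the other 3 arrays between 2.83 and 2.98. The brighter GFRA1 probe read 0.058 on it, with the nearest other array at 1.15. The second GFRA1 probe read 0.015 on it, with the nearest at 0.35. The same array stood apart from the others of its experiment over all probes.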

How the results depend on the processing

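The direction of the difference between the experiments was kept for the 7 genes under each of the 16 alternatives run, the turned sign left aside. The genes were chosen by these ratios, so this is no test. Where an alternative used a part of the arrays the direction was fixed, because the experiments did not overlap on the brightest probes. Its size moved by more than the SD between arrays in these cases. GFRA1 gave 3.43 with a normexp offset of 10, and with the Feature Extraction log ratio GFRA1 gave 7.65 and RASGRP1 4.87. GFRA1 was not well above background in ErbB2-KD. Median centring gave MYH9 2.46. With the knockdown in Cy5 only CAMK2N1 gave −2.03 and MYH9 2.36, and in Cy3 only −4.21 and 2.12. The mean of all tested probes gave ANKRD2 3.43, RASGRP1 1.77, GFRA1 1.39 and MYH9 1.89. With the sign of the MUC4-KD ratios turned the values were −0.094 (ANKRD2), 1.74 (RASGRP1), 0.35 (GFRA1), 1.22 (NAV3), −0.20 (CAMK2N1), −1.55 (PLK2) and 0.78 (MYH9). Leaving out 1 array moved none by more than its SD.

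The counts of called probes were less stable, and beyond the alternatives' own construction the cause was not tested. Median centring left 31 (48.4% higher, against 38%) in ErbB2-KD, 1 in MUC4-KD and 117 (93.2% higher, against 65.5%) for the difference. No filter left 50 and 2930. The Feature Extraction ratio gave 4082 for the difference. In ErbB2-KD a dye term gave 190, an intensity trend 547 and 1 fit over 8 arrays 1121. The methods' t-test with adjustment called 0 in ErbB2-KD (3173 at an unadjusted p under 0.05), 108 in MUC4-KD and 544 for the difference. Averaging MUC4-KD arrays 1 with 3 and 2 with 4 gave 568. Turning the MUC4-KD sign, an alternative for the counts added after the data were seen, gave 4434 (47.4% higher). Without 1 array the counts ran from 0 (without ErbB2-KD array 1, with 3872 at an unadjusted p under 0.05), 3 (without array 3) and 30 (without array 4) to 481 (without array 2) in ErbB2-KD, from 155 (without array 3) to 9616 (without array 4) in MUC4-KD, and from 634 (without MUC4-KD array 3) to 5191 (without MUC4-KD array 4) for the difference. The replicate numbers do not pair the samples (same-number correlations of deviations from −0.24 to −0.05). The replicate block cannot alter the members' differences (2.29 for ANKRD2), since each block holds 1 array of each experiment. It gave 585 calls for the difference. The correlation within slides was 0.016, estimated over the 8 arrays because 4 arrays on 3 slides give none.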
